A study of Mus musculus with 97 samples.

Results

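The comparison sets colon libraries of mice that had neomycin by injection against those of mice that had the same drug by mouth. The injected side pools 6 libraries labelled Neomycin-IP, from injection into the peritoneum, and 5 labelled Neomycin-IV, from injection into a vein. The oral side holds the 6 libraries labelled Neomycin-PO, from gavage. These 17 of the 97 libraries of the series were assigned to the 2 sides by their labels, and no PBS library enters the contrast. The mice were wild-type C57BL6/J aged 8 to 12 weeks. Each dose was 2.5 mg in 100 µl of phosphate buffered saline (PBS), given 2 times a day for 3 days with 1 more dose on day 4, and the whole colon was taken 4 hours after it. Vehicle alone was given by the same routes to 15 libraries, 6 by mouth, 4 into the peritoneum and 5 into a vein. These served as background and, with all other libraries, in the estimate of each gene's spread. Each p-value rests on a spread per gene that was estimated within the groups of all 97 libraries, most of them outside the comparison. Nothing in the labels says that the replicates are separate mice, so it reflects only how far samples spread, and some of that spread may be technical.

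Neomycin is an aminoglycoside that acts on the bacterial ribosome and is poorly absorbed from the gut. Type I and type III interferons signal through JAK kinases to a complex of STAT proteins with IRF9, which binds a promoter sequence called the interferon-stimulated response element and switches on antiviral genes. Interferon gamma acts through its own receptor and a STAT complex without IRF9, and many immunity-related GTPases, guanylate binding proteins and MHC class I genes answer to it as well.

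Values are TPM, transcript abundances corrected for length and scaled to 1 total per library, which keep no record of depth, so the reads behind each value are unknown. The 17 libraries had 19345 to 19884 genes above 0 TPM. Mitochondrial transcripts made up 3.52% to 11.8% of injected libraries and 3.89% to 11.6% of oral ones. The level of 18 smooth muscle genes, given as the mean log2(TPM + 1), ran from 7.40 to 10.3 in injected libraries and from 8.25 to 11.02 in oral ones. Goblet cell genes had levels of 5.13 to 7.90 over the 17 libraries, so epithelial and muscle markers were present in all, as the label whole colon says. The level of 6 posterior Hox genes ran from 1.59 to 5.96.

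Many interferon-stimulated genes were higher after injected than after oral neomycin. Of 17083 genes tested, 83 were called (limma adjusted p under 0.05), which is 0.486% of all, and 79 of them were higher (0.462%) and 4 lower (0.0234%) after injection. Of the 79, 46 stood on 5 interferon-related lists and 33 on none of the 39 lists used. The median log2 fold change of the 79 was 1.34, with a range of 0.46 to 3.2, against a median of -0.07 over all genes tested. In bulk tissue, fewer cells of a type and less RNA per cell cannot be told apart, and the same holds for more cells and more RNA per cell. For 51 of the 79 genes, at least 10 of the 11 injected libraries lay above the highest oral library, a count not made over all genes. All 11 did so for 18 of the 79, against 19 of all genes tested (0.111%). The 79 were chosen on these same libraries, so the choice favours such separation. A fit of the compared groups alone called 51 genes, 50 of them higher.

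On a list of 29 type I interferon-stimulated genes 28 rose, none fell and 1 was not called. The median log2 fold change of the list was 1.997. The uncalled gene was Samd9l, an antiviral factor that restricts poxviruses, with 0.91 (limma adjusted p = 0.171). In 28 of the 29 genes at least 10 of 11 injected libraries exceeded every oral library, a count not made over all genes tested. In 13 of the 29 all 11 did, against 0.111% of all genes tested. The list was drawn up with earlier results of these libraries known, so neither its direction nor this separation is independent evidence.

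**Figure D1:**
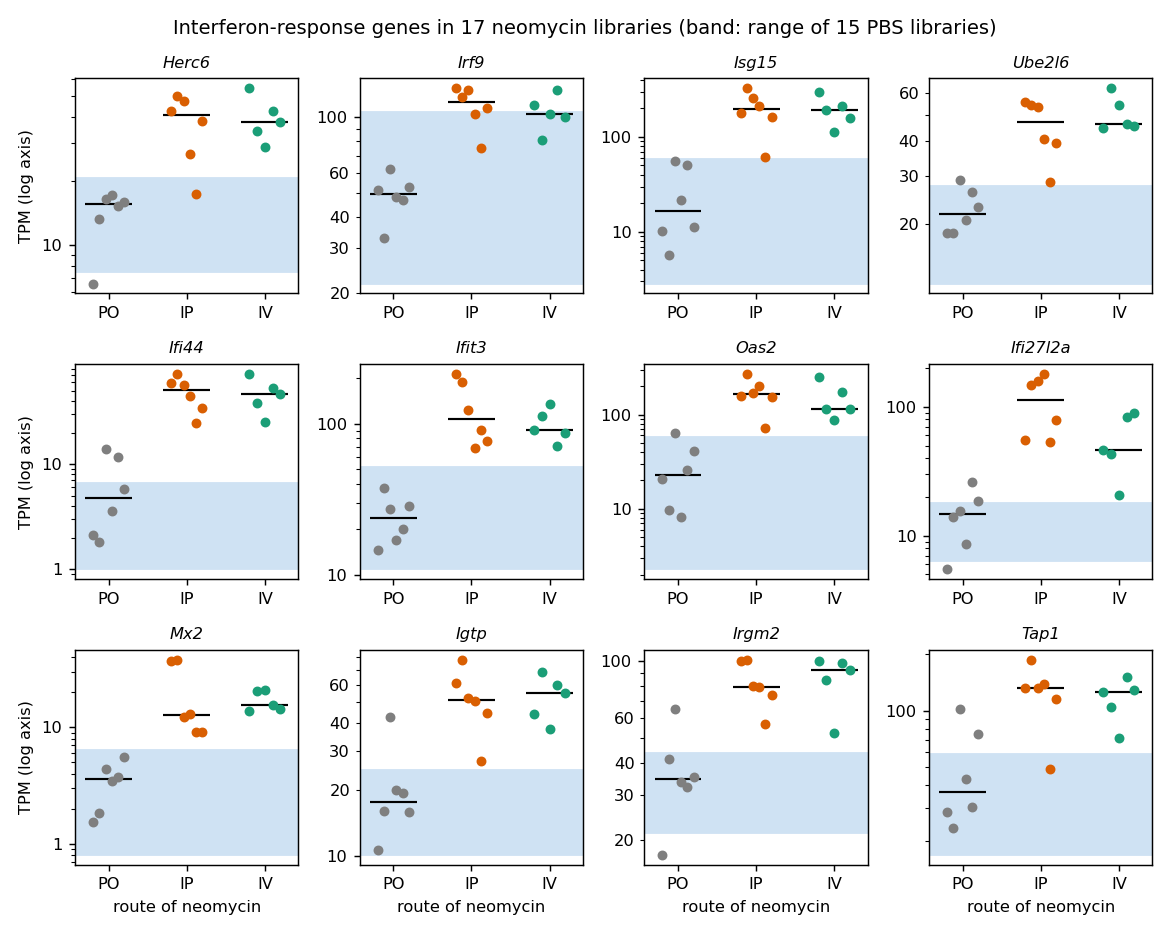
TPM (log axis) of 12 genes of the interferon response in each library given neomycin by mouth (PO, grey), into the peritoneum (IP, orange) or into a vein (IV, green), in the order of replicate number, with bars at the group medians and a band for the range of 15 PBS libraries. For Herc6, Isg15, Ifi44, Ifit3, Oas2, Mx2 and Irf9 all 11 injected libraries lie above all 6 oral ones.

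The promoters of the genes that rose were read for the interferon response element, because type I interferon-stimulated genes are known to be switched on through it. The core searched was GAAA, any 2 bases, then GAAA, on both strands (TTTC, 2 bases and TTTC on the other), in windows of 300 bases from 250 before to 50 after each start in RefSeq (assembly GRCm38). Of the 79 genes, 64 matched a window, and 32 of them (50%) held the core, against 3.99% of 27025 genes of the table and 3.44% of its 32851 windows. The gamma-activated site TTCNNNGAA, which is its own reverse complement, stood in 11 of 64 (17.2%) against 9.55% of genes and 8.3% of windows, and 8 of the 64 held both. Below are the 200 bases before the start of 6 genes that rose and held the GAAA core there. They run 5′ to 3′ on the gene's strand, with every match of that core in capitals. Matches to the gamma-activated site were left in lower case, and the windows of Igtp and Irgm2 each held 1.
Ifit3 (chr19:34583329-34583528, plus strand): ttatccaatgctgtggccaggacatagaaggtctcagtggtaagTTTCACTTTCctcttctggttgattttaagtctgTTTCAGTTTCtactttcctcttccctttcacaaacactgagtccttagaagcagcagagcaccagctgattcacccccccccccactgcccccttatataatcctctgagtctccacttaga
Igtp (chr11:58199356-58199555, plus strand): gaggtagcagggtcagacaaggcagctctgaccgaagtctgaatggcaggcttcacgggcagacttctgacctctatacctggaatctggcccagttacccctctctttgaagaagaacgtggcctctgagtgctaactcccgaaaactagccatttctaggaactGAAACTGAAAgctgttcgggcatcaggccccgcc
Irgm2 (chr11:58214777-58214976, plus strand): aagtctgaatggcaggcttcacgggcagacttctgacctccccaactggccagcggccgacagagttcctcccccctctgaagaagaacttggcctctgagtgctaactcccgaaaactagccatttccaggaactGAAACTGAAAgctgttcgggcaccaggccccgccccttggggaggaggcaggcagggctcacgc
Isg15 (chr4:156200819-156201018, minus strand): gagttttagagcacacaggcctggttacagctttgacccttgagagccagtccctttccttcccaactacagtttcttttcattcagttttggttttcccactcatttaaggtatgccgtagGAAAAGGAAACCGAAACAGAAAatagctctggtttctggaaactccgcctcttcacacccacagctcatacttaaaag
Irgm1 (chr11:48871421-48871620, minus strand): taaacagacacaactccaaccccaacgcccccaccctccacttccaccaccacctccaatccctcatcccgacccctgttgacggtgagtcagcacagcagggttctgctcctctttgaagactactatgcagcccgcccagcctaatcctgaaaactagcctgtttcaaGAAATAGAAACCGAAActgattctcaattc
Apol9b (chr15:77728872-77729071, plus strand): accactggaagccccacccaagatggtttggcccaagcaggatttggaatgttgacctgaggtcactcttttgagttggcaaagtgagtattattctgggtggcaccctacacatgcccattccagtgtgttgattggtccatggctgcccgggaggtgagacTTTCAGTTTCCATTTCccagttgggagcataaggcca
Isg15, Irgm1 and Apol9b each held overlapping matches. The first and last began 78 and 66 bases before the start in Isg15, and 30 and 24 bases before it in Irgm1. The matches of Ifit3 began 156 and 122 bases before the start. The windows of Igtp and Irgm2, neighbouring genes on chromosome 11, shared an identical run of 29 bases around the core. A match describes letters and is not a measured binding site.

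Among the genes that carry the interferon signal, Irf9 rose, and the receptors and kinases did not pass the test. The interferon genes Ifnb1, Ifng, Ifnl2 and Ifnl3 were listed but were not among the genes tested, so no difference is given for them. Irf9, the DNA-binding subunit of the complex that interferon receptors activate, had 33.1, 49.6 and 61.9 TPM (lowest, median and highest) after oral neomycin and 75.6, 115 and 130.4 after IP. Its IV libraries had 111, 81.1, 103, 128 and 100.0 TPM. No injected library overlapped the oral range, and Irf9 rose by 1.13 (SE 0.21, limma adjusted p = 0.000404). Irf7, the factor that amplifies interferon production, also had separate ranges, 115 to 272 TPM by mouth against 297 to 1421 injected. Its log2 fold change of 2.03 had an SE of 0.60 and was not called (limma adjusted p = 0.171). The PBS libraries ran from 35.6 to 675 TPM. Stat2 had 0.78 (limma adjusted p = 0.295). The 6 receptor genes for type I, II and III interferons (Ifnar1, Ifnar2, Ifngr1, Ifngr2, Ifnlr1 and Il10rb) had log2 fold changes of -0.12 to 0.47, and the kinases Jak1, Jak2 and Tyk2 -0.15 to 0.09, with no adjusted p below 0.738 in limma.

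Isg15, of the type I list, encodes a ubiquitin-like modifier that is joined to other proteins. It had 5.67, 16.5 and 56.0 TPM (lowest, median and highest) after oral neomycin, 61.3, 195 and 326 after IP, and 296, 194, 112, 210.3 and 157 in the IV libraries. The lowest injected library lay just above the highest oral one, and the means were 197 ± 77.2 TPM (SD, n = 11) and 26.0 ± 21.99 (n = 6). Isg15 rose by 3.2 (SE 0.46, limma adjusted p = 9.66e-07), the largest log2 fold change among the called genes.

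Ube2l6, the enzyme that carries ISG15 to its targets, and the conjugation genes after it were chosen after their values were seen, except Dtx3l. It had 18.6, 21.9 and 28.9 TPM by mouth, 28.5, 47.0 and 55.4 after IP, and 44.8, 62.4, 54.0, 46.1 and 45.4 after IV. Of 11 injected libraries 10 lay above the oral range, and Ube2l6 rose by 1.04 (SE 0.12, limma adjusted p = 1.32e-08). Herc6, the ligase that attaches ISG15 in mice, rose by 1.38 with all 11 libraries above the oral range. Usp18, which removes ISG15 and restrains interferon receptor signalling, rose by 1.76 with 10 of 11. Dtx3l, a ubiquitin ligase that works with PARP9, rose by 1.07, and its partner Parp9 by 1.22. Parp9 was not called in a fit of the compared groups alone or without the 4 libraries richest in muscle genes (limma adjusted p = 0.0874 and 0.083).

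Genes of families known for direct action against viruses follow, and antiviral activity was not measured. Ifi44, an interferon-induced protein, had 1.82, 4.74 and 13.95 TPM by mouth and 24.8, 50.8 and 71.8 after IP. Its IV libraries had 72.2, 38.3, 25.3, 53.6 and 46.9 TPM. The ranges did not overlap, and Ifi44 rose by 2.92 (SE 0.35, limma adjusted p = 1.32e-08). Ifit3, of the family that binds foreign RNA ends, had 14.6, 23.7 and 37.5 TPM by mouth and 68.7, 108 and 214 after IP, with 91.7, 114, 136, 71.8 and 87.3 after IV. It rose by 2.16 (SE 0.28, limma adjusted p = 7.77e-08) with no overlap. Ifit1, of the same family, rose by 2.43, from a mean of 52.6 ± 15.7 TPM (n = 6) to 291 ± 111 (n = 11). The near copies Ifit3b (1.997) and Ifit1bl1 (2.23) also rose, but reads may be split between such copies, so their separate values are uncertain. Ifit1bl1 was not called without Neomycin-PO replicate 1 or 2 (limma adjusted p = 0.136 and 0.0702).

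The sensor enzymes of the Oas family make a small messenger that activates RNase L when they meet viral RNA. Oas2 had 8.27, 23.1 and 63.2 TPM by mouth, 72.4, 163 and 269 after IP, and 252, 115, 86.9, 173 and 115 after IV. All 11 injected libraries were above the oral range, and Oas2 rose by 2.69 (SE 0.51, limma adjusted p = 0.000472). Oas3 rose by 2.64 and Oasl2 by 2.26, each with 10 of 11 libraries above the oral range. Oas3 was not called without Neomycin-PO replicate 2 or 6 (limma adjusted p = 0.131 and 0.0553). Mx2, of the Mx family of GTPases, had 1.55, 3.61 and 5.56 TPM by mouth and 9.10, 12.7 and 38.1 after IP. Its IV libraries had 13.7, 20.4, 21.1, 15.6 and 14.2 TPM. It rose by 2.07 (SE 0.27, limma adjusted p = 1.36e-07), and Mx1 rose by 1.87. Bst2, or tetherin, which holds budding virus on the cell surface, rose by 1.81, and Rsad2, or viperin, by 1.83, both with separate ranges. Rtp4 rose by 2.16 and Phf11d by 2.15. Cmpk2, the mitochondrial nucleotide kinase next to Rsad2 in the genome, rose by 2.06 with separate ranges, and Parp14, which adds ADP-ribose to proteins, by 1.16 with separate ranges.

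Ifi27l2a, a small interferon-induced membrane protein, had the smallest adjusted p of all genes. It had 5.48, 14.6 and 25.8 TPM by mouth and 53.3, 113 and 179 after IP, while the IV libraries had 46.1, 43.3, 20.5, 82.7 and 89.0. A single IV library, replicate 3, lay inside the oral range, and the gene rose by 2.34 (SE 0.27, limma adjusted p = 5.63e-09). Apol9b, an apolipoprotein L family gene, rose by 2.45 and its near copy Apol9a by 2.26, and reads may be split between them. Apol9a was not called without Neomycin-PO replicate 2 or 4 (limma adjusted p = 0.0509 and 0.0507). Slfn4, a Schlafen gene known from myeloid cells, had 12.5, 131 and 426 TPM by mouth, 339, 1361 and 2329 after IP, and 2044, 372, 340.1, 1860 and 1106 after IV. It rose by 3.18 (SE 0.70, limma adjusted p = 0.00513), with 8 of 11 injected libraries above the oral range, and was not called without Neomycin-PO replicate 2 (limma adjusted p = 0.131).

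Genes that answer to interferon gamma rose in part. Of 24 tested, 8 rose, none fell and the median was 0.44. Immunity-related GTPases, which attack the vacuoles of intracellular microbes, had the smallest adjusted p-values of the list in limma. Igtp had 10.7, 17.7 and 42.7 TPM by mouth, 27.1, 51.2 and 77.8 after IP, and 44.3, 68.8, 37.7, 59.5 and 54.8 after IV. The highest oral library, replicate 3, overlapped the injected range, and Igtp rose by 1.38 (SE 0.19, limma adjusted p = 2.11e-07). Irgm2 rose by 1.199 and Irgm1 by 1.26. Igtp, Irgm2 and Irgm1 were not called in a fit of the compared groups alone with a replicate block (limma adjusted p = 0.0905, 0.128 and 0.155). Of 9 guanylate binding protein genes 3 rose, Gbp6 by 1.28, Gbp3 by 1.33 and Gbp7 by 0.76. Gbp2 had 0.32 (limma adjusted p = 0.795). Cxcl10, a chemokine that draws T cells, rose by 1.90, from 3.34 ± 2.22 TPM (n = 6) to 15.01 ± 6.52 (n = 11). Nlrc5, the regulator that switches on MHC class I genes, rose by 1.33 although only 3 of 11 injected libraries exceeded the highest oral one. Nlrc5 was not called without Neomycin-PO replicate 1, 2, 4 or 5 (limma adjusted p 0.0503 to 0.0992). Gbp7 was not called without Neomycin-PO replicate 1 or 5, Neomycin-IP replicate 2 or Neomycin-IV replicate 1 or 4 (limma adjusted p 0.0545 to 0.306).

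MHC class I presentation had fewer calls. Of 17 genes 3 rose, none fell, 16 were positive and the median was 0.73. Tap1, a subunit of the transporter that loads peptides, had 23.6, 36.7 and 102 TPM by mouth, 48.9, 132 and 187 after IP, and 126, 104, 71.7, 150.2 and 128 after IV, and rose by 1.37 (SE 0.29, limma adjusted p = 0.00223). B2m, the light chain of class I molecules, rose by 0.90 and H2-T22, a non-classical class I gene, by 0.81. B2m lost the call without Neomycin-PO replicate 2, at 0.76 (limma adjusted p = 0.113). H2-T22 lost it without any 1 of Neomycin-PO replicates 1, 2 and 6, Neomycin-IP replicates 2, 3, 4 and 6 and Neomycin-IV replicates 2, 3, 4 and 5 (limma adjusted p 0.051 to 0.505). The classical heavy chains H2-D1 (0.89, limma adjusted p = 0.349) and H2-K1 (0.79, limma adjusted p = 0.738) were not called, with 10 and 9 of 11 injected libraries above the oral range.

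Of 19 tested sensors of RNA and DNA 5 rose, none fell and the median was 0.31. The list also held Ddx58, the gene of RIG-I, and Tmem173, which were not tested under those names. Adar, which edits RNA and mutes its sensing, had 41.1, 59.6 and 82.8 TPM by mouth, 95.6, 123 and 157 after IP, and 142, 94.6, 107, 129 and 105 after IV. It rose by 1.01 (SE 0.19, limma adjusted p = 0.000534) with no overlap. Ddx60, a helicase tied to RIG-I signalling, rose by 2.11, and Eif2ak2, the kinase PKR that halts translation on viral RNA, by 0.85. Zc3hav1, which targets CG-rich viral RNA, rose by 0.63 and Trim25, the ligase that acts on RIG-I, by 0.99. These 4 were not called without Neomycin-PO replicate 2 (limma adjusted p 0.0762 to 0.389). Zc3hav1 and Trim25 each also lost the call in 12 of the 16 other single omissions. Ifih1, the RNA sensor MDA5, had 1.197 (limma adjusted p = 0.111). Dhx58 (2.09) and Zbp1 (2.07), sensors counted here with the type I list, both rose, Zbp1 not without Neomycin-PO replicate 1 or 2 (limma adjusted p = 0.051 and 0.12).

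**Figure D2:**
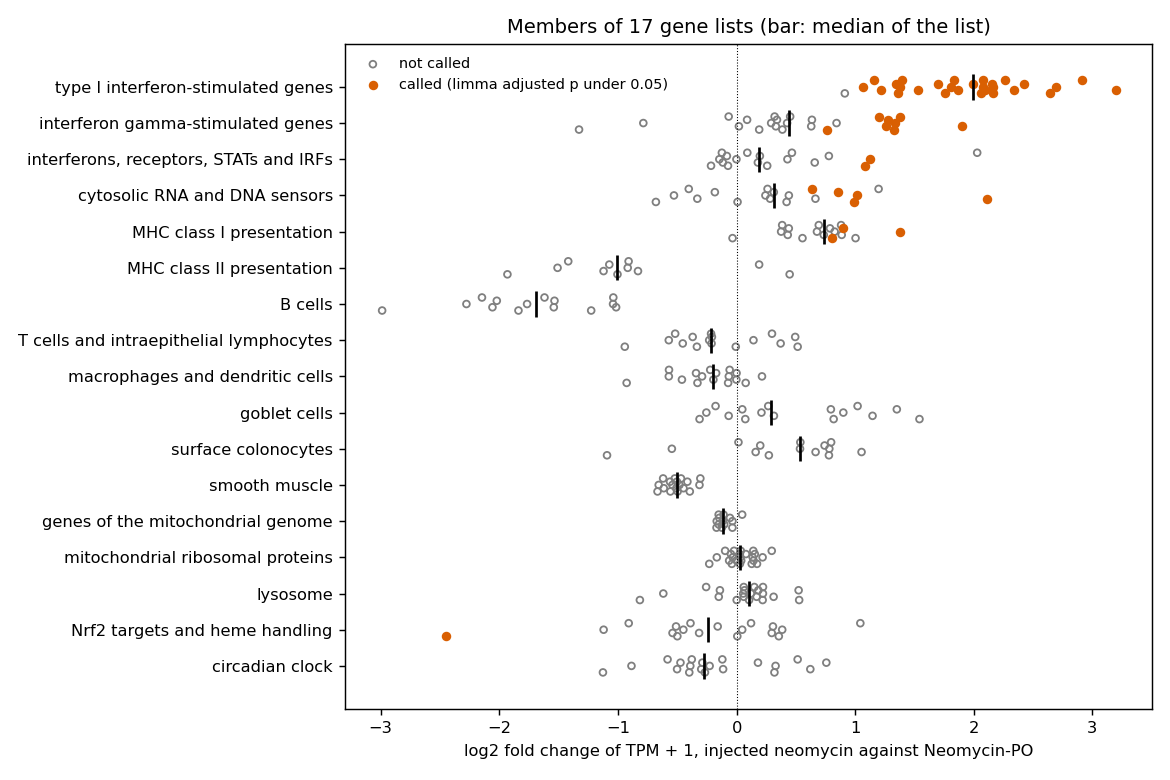
Log2 fold change of TPM + 1, injected against oral neomycin, for each tested gene of 17 lists (horizontal axis), with called genes filled, uncalled genes open and a bar at each list's median. The type I interferon list has 28 of 29 genes called, the B cell and MHC class II lists lie at medians of -1.69 and -1.004 with none called, and the smooth muscle and mitochondrial lists hold no call.

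The 33 higher genes outside every list included Ube2l6, Apol9a, Apol9b, Slfn4 and Ifit1bl1, described above. Znfx1, a helicase-like protein of mitochondria that binds RNA, rose by 1.05 with all 11 injected libraries above the oral range, 27.8 to 53.9 TPM against 61.2 to 138. Rnf213, a very large ubiquitin ligase, rose by 1.87, and Lgals9, or galectin-9, by 1.55, each with 10 of 11 above the oral range. Over all tested genes 19 (0.111%) had ranges that did not overlap between the 11 injected and 6 oral libraries. In all 19 the injected libraries were higher, and 18 of them were called. Irf7 was the exception.

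The 2 injected routes were also set against oral neomycin one at a time. IP against oral neomycin called 60 genes (0.351%), 58 of them higher (0.34%) and 2 lower (0.0117%). IV against oral neomycin called 59 (0.345%), 56 higher (0.328%) and 3 lower (0.0176%). These comparisons share the same 6 oral libraries. Both counts rest on the spread of all groups and were far smaller in fits of the compared groups alone, with or without a replicate block, as given in the last section. Of the 79 genes above, 56 were called by IP, 56 by IV, 47 by both and 14 by neither route alone, and all 79 had positive values in both, which their choice on the mean of these contrasts largely fixes. The type I list had medians of 1.98 by IP and 1.88 by IV, with 23 and 22 of 29 genes called. Isg15 had log2 fold changes of 3.17 by IP and 3.22 by IV, and Igtp 1.35 and 1.41.

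Directly compared, IV and IP neomycin gave no called gene (0% of 17083, smallest limma adjusted p = 1), with 371 at an unadjusted p under 0.05. Of the 79 genes, 48 were nominally higher by IV and 31 by IP, with a median difference of 0.04. The largest was Ifi27l2a at -0.99 (SE 0.32), higher by IP and not called. A difference that misses the threshold does not show that the routes act alike. The level of the type I list, the mean log2(TPM + 1) of its 29 genes, ranged from 5.59 to 7.02 over the IP libraries and from 6.26 to 6.79 over the IV libraries, against 3.95 to 5.24 by mouth.

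**Figure D3:**
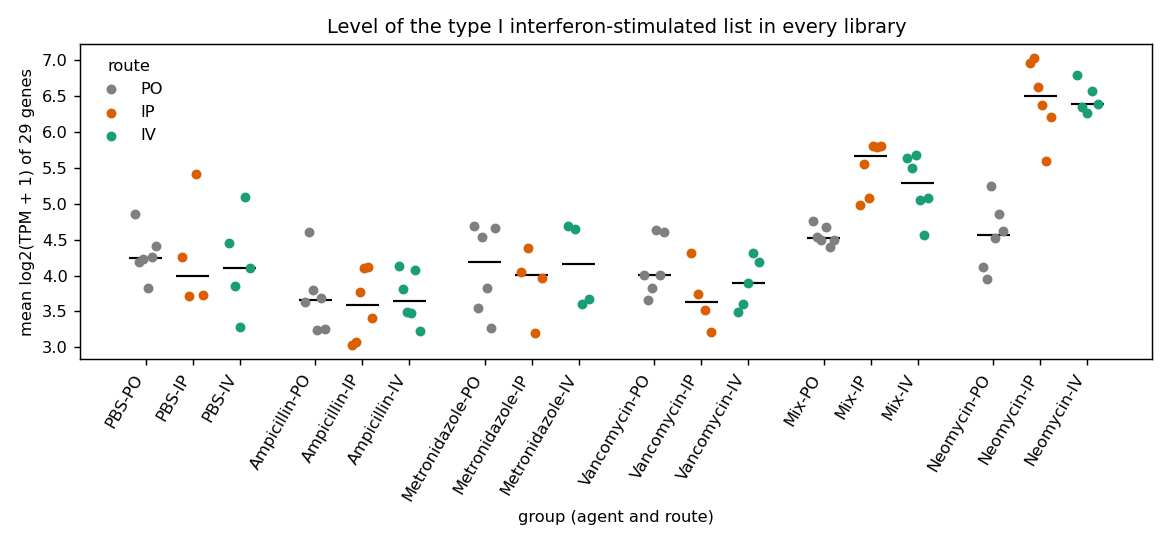
Mean log2(TPM + 1) of 29 type I interferon-stimulated genes in every library of the 18 groups, by agent and route (horizontal axis), with a bar at each median. The 11 injected neomycin libraries lie at 5.59 to 7.02, above all 6 oral neomycin libraries (3.95 to 5.24), and the injected mix groups reach 5.80.

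Injected against oral vehicle called 0 genes (0%, limma, smallest adjusted p = 0.34), with 200 at an unadjusted p under 0.05. The 79 genes had PBS values of -0.54 to 0.69 with a median of -0.06, and 48 were negative. The test of the neomycin difference minus the PBS difference called 27 genes (0.158%), 26 higher (0.152%) and 1 lower (0.00585%), and all 26 were among the 79. The 79 were chosen on the first term of that test, so their sign in it is largely fixed by the choice. Dtx3l had the smallest adjusted p, with a difference of 1.41 (SE 0.21, limma adjusted p = 3.86e-05). Isg15 had 3.29 (limma adjusted p = 0.00534) and Ifi44 3.14 (limma adjusted p = 8.98e-05). Oas2, at 2.84, was not called (limma adjusted p = 0.113). Without Neomycin-PO replicate 2 the count was 16, and without the 4 libraries richest in muscle genes 17.

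In the other groups the type I list was lower than after injected neomycin. Oral neomycin had a median level of 4.57 and oral PBS 4.25, and PBS had 4.00 by IP and 4.11 by IV. The mix of antibiotics, which contains neomycin, had medians of 5.67 by IP and 5.28 by IV and 4.52 by mouth. Ampicillin, metronidazole and vancomycin had medians of 3.59 to 4.18. For all 79 genes the mean of the injected neomycin libraries exceeded the mean of each group outside the comparison. For 76 of the 79 the next highest was an injected mix group. The 79 were chosen for high values in the injected neomycin libraries, which favours that rank, and its share over all genes was not counted. For Isg15 the next highest group was Mix-IP with 57.3 ± 18.7 TPM (n = 6).

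Muscle content differed among the 17 libraries, and its part in the interferon result was not tested beyond the values given here. Neomycin-IP replicate 5 had the lowest level of the injected libraries (5.59) and the highest smooth muscle level among them (10.3). Neomycin-PO replicate 2 had the lowest oral level (3.95) and the highest muscle level (11.02). Neomycin-IV replicate 1, with a muscle level of 10.01, had an interferon level of 6.79. Without the 4 libraries richest in muscle genes 57 genes were called, 53 of them higher. The named genes that lost the call were Lgals9, Parp9, Eif2ak2, Ddx60, Slfn4, Zbp1, B2m, Apol9a, Ifit1bl1, Oas3, Cryzl1, H2-T22, Zc3hav1 and Trim25 (limma adjusted p 0.082 to 1). With muscle and distal scores as covariates 106 genes were called, 92 of them higher. The 18 smooth muscle genes had a median of -0.51 and none was called.

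The 4 genes that fell were Hmox1, Ikbkg, Slc6a19 and Cryzl1. Hmox1, heme oxygenase 1, degrades heme and is induced through Nrf2 under oxidative stress. The 6 oral libraries had 19.9, 3.39, 303, 3.01, 178 and 9.05 TPM in the order of replicate number, against 1.63, 3.03 and 7.69 (lowest, median and highest) after IP and 1.94, 4.63, 6.78, 1.94 and 4.22 after IV. Neomycin-PO replicates 3 and 5 were far above the rest, and replicates 2 and 4 lay inside the injected range. Hmox1 fell by 2.45 in log2 units (SE 0.41, limma adjusted p = 5.09e-05). Without both of those replicates the value was -0.82 and was not called (limma adjusted p = 0.257). The PBS libraries had 2.36 to 7.03 TPM, within the injected range of 1.63 to 7.69. A fit of the compared groups alone did not call Hmox1, Ikbkg, Slc6a19 or Cryzl1 (limma adjusted p 0.452 to 0.801).

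Ikbkg, which encodes NEMO, the regulatory subunit of the kinase that activates NF-κB, was high in the same libraries. Its oral values were 32.9, 35.5, 191, 37.6, 167 and 44.6 TPM and its injected range 19.96 to 50.8. It fell by 0.93 (SE 0.21, limma adjusted p = 0.0112), and without both replicates the value was -0.19 (limma adjusted p = 0.538). Slc6a19, the transporter of neutral amino acids, had 4.94, 3.64, 46.8, 1.02, 21.6 and 2.98 TPM by mouth and 0.582 to 2.46 injected. It fell by 1.75 (SE 0.41, limma adjusted p = 0.0119), with -0.72 without both (limma adjusted p = 0.353). Ikbkg and Slc6a19 also lost the call without either replicate 3 or replicate 5 alone, at -0.61 and -0.65 for Ikbkg and -1.23 and -1.44 for Slc6a19. The other 17 tested genes of Nrf2 targets and heme handling were not called, and the list's median was -0.24. The ferritin chain Ftl1 had -0.39 (limma adjusted p = 0.767).

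Cryzl1, a quinone reductase-like gene, showed a small shift in most libraries. Its oral values were 39.8, 41.9, 34.6, 39.4, 42.1 and 43.9 TPM, and the injected range was 29.1 to 35.3, with 10 of 11 injected libraries below the lowest oral one. It fell by 0.31 (SE 0.08, limma adjusted p = 0.0263). Leaving out any 1 of Neomycin-PO replicates 1, 2, 5 and 6, Neomycin-IP replicate 4 and Neomycin-IV replicate 2 ended the call (limma adjusted p 0.0546 to 0.141). The PBS range was 28.9 to 42.7 TPM.

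**Figure D4:**
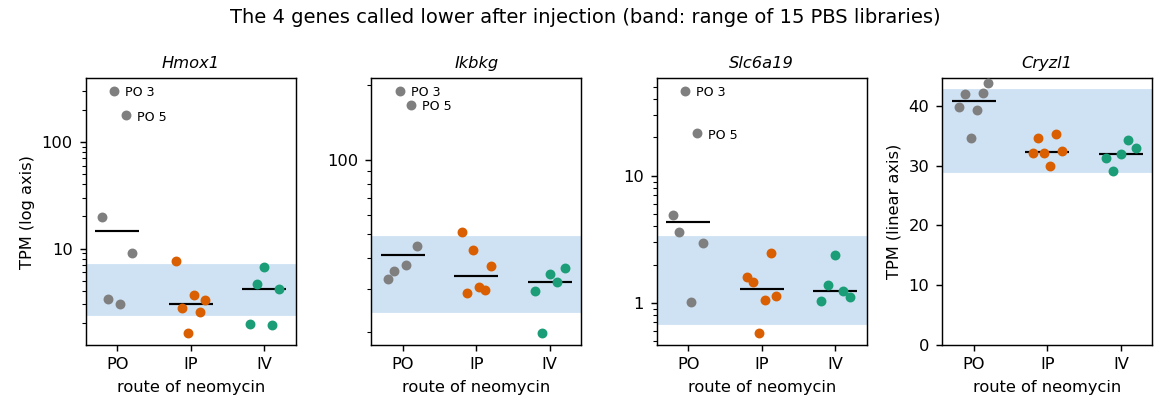
TPM of the 4 genes called lower after injection in each neomycin library (PO, IP and IV on the horizontal axis, log vertical axis except for Cryzl1), with group medians as bars and a band for the range of 15 PBS libraries. Hmox1, Ikbkg and Slc6a19 are far above the other libraries in Neomycin-PO replicates 3 and 5, and Cryzl1 lies at 29.1 to 35.3 TPM in injected and 34.6 to 43.9 TPM in oral libraries.

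Genes of B cells and of MHC class II were lower after injection without passing the test. All 14 B cell genes were negative with a median of -1.69, and none was called (smallest limma adjusted p = 0.696). Of the 14, 11 had an unadjusted p under 0.05, against 1142 of all 17083 tested genes (470 higher and 672 lower). Pax5, the factor that fixes B cell identity, had 12.6, 56.2 and 924 TPM by mouth and 0.728, 11.4 and 341 after IP, with 0.0142, 0.794, 0, 10.7 and 110.3 after IV. The spread within each group was larger than the difference between the medians. Single libraries held most of it, namely Neomycin-PO replicates 3 and 6, Neomycin-IP replicate 2 and Neomycin-IV replicate 5, with B cell levels of 5.29, 7.04, 5.85 and 4.98, against 3.56 or less in the other 13. Of 11 MHC class II genes 8 had an unadjusted p under 0.05 and lower values, none was called, and the median was -1.004. Cd74, the invariant chain, had -1.07 (SE 0.52, limma adjusted p = 0.738).

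With the B cell level as a covariate 84 genes were called, 80 of them higher. Neomycin-IP replicate 2 had the highest B cell level of the injected libraries and an interferon level of 7.02, and Neomycin-IV replicate 3, with the lowest B cell level of all (0.77), had 6.26. Of the T cell, macrophage and plasma cell genes none was called, with medians of -0.21, -0.20 and -0.09. Lyz2, the lysozyme of macrophages, had -0.93 (limma adjusted p = 0.723).

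**Figure D5:**
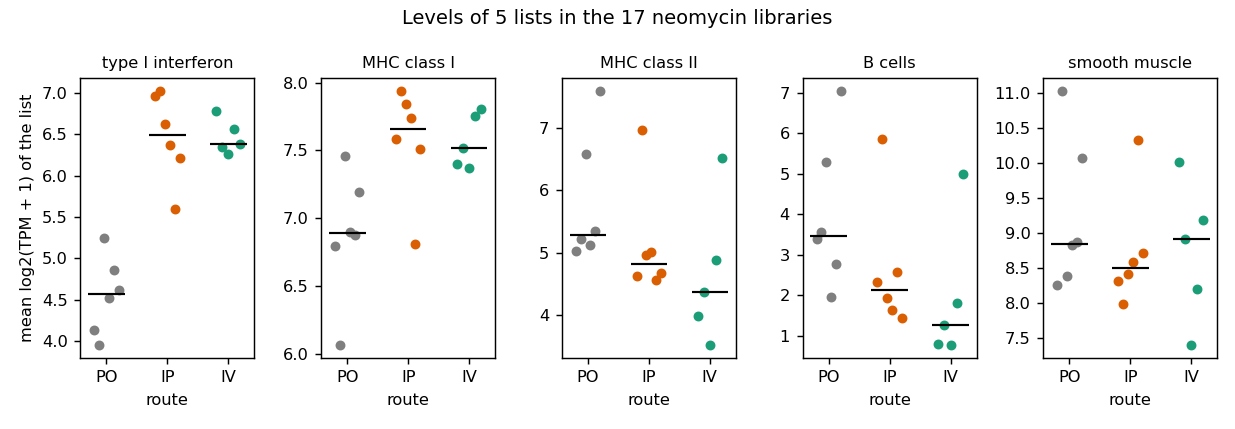
Mean log2(TPM + 1) of the type I interferon, MHC class I, MHC class II, B cell and smooth muscle lists in each of the 17 neomycin libraries by route (horizontal axis), with bars at the medians. The type I interferon levels do not overlap between oral (3.95 to 5.24) and injected libraries (5.59 to 7.02), whereas the other 4 lists overlap.

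The remaining lists held no called gene beyond those named. The 18 proliferation genes were all positive with a median of 0.76, and the 20 cholesterol synthesis genes were all positive with a median of 0.39. Of them 3 and 5 had an unadjusted p under 0.05, against 470 higher genes of all 17083 tested. Surface colonocyte genes had a median of 0.54 and goblet cell genes 0.29. The 13 genes of the mitochondrial genome had a median of -0.12, 23 nuclear genes of oxidative phosphorylation 0.07, and 23 mitochondrial ribosomal proteins 0.03. Lysosomal genes had 0.11, clock genes -0.28, and antimicrobial genes of the epithelium 0.30.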

How the data were processed

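RNA of whole colon, 1000 ng per library and selected for poly(A), was sequenced with single-end reads of 75 cycles, per the labels' protocols. The authors deposited 1 table of TPM values for 97 libraries. Per the submitters' processing notes, Trim Galore 0.6.2, cutadapt 3.5 and Salmon (version not given) were used with the mouse genome GRCm39; whether reads were counted by strand is not given in the sources used here, so overlapping genes may share signal.

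The deposited TPM were used as log2(TPM + 1), so fold changes of low genes come out too small. Testing needed a TPM of 1 or above in 4 or more of the 97 libraries, which 17083 of 20457 genes met. limma 3.58.1 (trend and robust options, R 4.3.3) fitted 1 model to the 18 groups; the contrast was the mean of Neomycin-IP and Neomycin-IV minus Neomycin-PO, with Benjamini-Hochberg adjustment over all tested genes and calls at an adjusted p under 0.05. On simulated data 70% of 2-fold and 95% of 4-fold changes were recovered, with 5 false calls among the unchanged of 17083 genes. The simulated noise was normal and independent between genes and libraries, and changes were placed only in genes above a set mean level. Shifts shared by many genes, as in muscle or B cell content, were not simulated, so these rates need not hold for the real libraries. No libraries held identical values.

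Up to 14 of the largest rises and 10 of the largest falls were named, among called genes with a mean TPM at or above the median of tested genes; only 3 falls qualified. Added were up to 4 called and 2 uncalled members of each list and up to 5 genes of the smallest p in IV against IP and in the difference from PBS; 1608 predicted genes, pseudogenes and receptor segments were left out. Genes named outside the rule were chosen after their values were seen: Slc6a19, Ube2l6, Usp18, Herc6, Mx1, Mx2, Rsad2, Cxcl10, Stat2, Bst2, Gbp3, Gbp7, Nlrc5, Trim25, Znfx1, Rnf213, Lgals9, Zbp1, Dhx58, Cmpk2, Parp9, Parp14, and the receptor and kinase genes. The comparison and the gene lists were chosen with earlier results of these data known. Alternatives were other pseudocounts, no filter, quantile normalization, array weights, the compared groups alone, a replicate block, covariates, rescaling and each library left out. A gene that the naming rule covers is not reported here.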

Additional observations from a re-analysis of the deposited data

Results flagged for a closer look

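In 66 named genes, each of the 3 neomycin groups was searched for a highest or lowest library whose gap to its neighbour, as a share of the group's range, passed Dixon's critical value, and 34 of 198 such groups held one. By the level at which that value is set, chance flags about 1 in 20 groups of normally spread values. Genes read in the same library are not independent.

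Neomycin-PO replicate 3 was high for Igtp (42.7 TPM), Oasl2 (209 TPM), Gbp6 (20.8 TPM) and Slfn4 (426 TPM), and replicate 4 for Ifit1bl1 (522 TPM). Neomycin-PO replicate 1 was low for Herc6 (6.60 TPM), and replicate 2 for Samd9l (35.4 TPM) and H2-K1 (435 TPM). Neomycin-IP replicate 5, the injected library with most muscle RNA (Tagln 7503 TPM), was low for Rtp4 (45.4 TPM), Zbp1 (35.7 TPM), Zc3hav1 (75.2 TPM), Ifih1 (40.8 TPM), H2-D1 (818 TPM) and H2-K1 (1020.2 TPM). Neomycin-IP replicate 1 was high for Hmox1 (7.69 TPM) and Znfx1 (138 TPM) and low for Gbp2 (18.1 TPM). Neomycin-IV replicate 1 was high for Dtx3l (199 TPM), Usp18 (42.9 TPM) and Irf7 (1421 TPM), and replicate 3 for Slc6a19 (2.39 TPM).

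Genes of B cells and myeloid cells stood out in single libraries. Neomycin-IP replicate 2 was high for Pax5 (341 TPM), Cd37 (155 TPM), Cd74 (694 TPM) and Lyz2 (301 TPM), and also for Mx1 (102 TPM) and Nlrc5 (41.3 TPM). Neomycin-IV replicate 5 was high for Pax5 (110.3 TPM), Cd37 (77.2 TPM), Cd74 (713 TPM) and Lyz2 (231 TPM). Neomycin-PO replicate 6 was high for Pax5 (924 TPM) and Cd37 (460.2 TPM).

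For 21 named genes the route difference under neomycin differed from that under PBS by the limma test of the difference itself. On the log2 scale the route difference was larger under neomycin by 2.42 for Ifi27l2a, 0.91 for Ube2l6, 3.14 for Ifi44, 2.39 for Ifit3b, 2.35 for Ifit3, 2.28 for Mx2, 1.30 for Igtp, 1.46 for Irgm2 and 1.41 for Dtx3l. The difference was 3.29 for Isg15, 1.66 for Bst2, 1.30 for Irgm1, 1.84 for Usp18, 1.35 for Herc6 and 2.41 for Oasl2. It was 2.01 for Cmpk2, 1.23 for Znfx1, 1.99 for Rnf213, 2.24 for Dhx58 and 1.34 for Parp14. For Hmox1 it was -2.72.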

How the results depend on the processing

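Every named called gene kept its direction under all 31 settings, 21 of 52 kept the call under each, and 36 kept it in every single omission of a library. The count of 83 was 51 (50 higher) in a fit of these groups alone, and there 15 of the 52 named genes lost the call (Hmox1, Ikbkg, Slc6a19, Cryzl1, Gbp3, Gbp7, Parp9, Tap1, Eif2ak2, Zbp1, B2m, Ifit1bl1, Nlrc5, H2-T22 and Zc3hav1); array weights gave 101 (77 higher, 24 lower), and single omissions 57 to 89. IP against oral neomycin gave 92 genes with array weights, 5 in a fit of its groups alone and 47 to 72 in single omissions. IV against oral neomycin gave 16 alone, 24 without the 4 libraries richest in muscle genes and 38 to 65 in single omissions, the lowest without Neomycin-PO replicate 2. IV against IP gave 1 gene with array weights. The difference from PBS gave 47 genes with array weights, 10 alone, 52 with muscle and distal covariates, 17 without the muscle-rich libraries and 16 to 35 in single omissions. Injected against oral PBS gave 0 to 1 gene, with 1 lower gene without PBS-PO replicates 2, 3, 5 or 6. With a replicate block in a fit of the groups alone the counts were 34, 0 (IP), 0 (IV) and 16 (difference from PBS). Of the 52 named genes 27 then lost the call. They were the 15 that the fit of these groups alone also lost, with Bst2, Cxcl10, Dhx58, Gbp6, Herc6, Igtp, Irgm1, Irgm2, Lgals9, Mx1, Rnf213 and Slfn4. For these added genes the limma adjusted p was 0.0502 to 0.155. Same-numbered samples had correlations of -0.50 to 0.69 (median 0.03) and 3 of 16 were best with their own number. The labels do not say whether same-numbered samples share a cage or day. These correlations cannot decide it, because tissue content also shapes them, so the numbers were treated as names only. Uncalled genes that changed sign were Gbp2 (-0.12 to 0.55 over single omissions, below 0 without Neomycin-PO replicate 1), Ftl1 (0.087 without Neomycin-PO replicates 3 and 5) and Cd37 (0.19 with the B cell covariate). Leaving out the muscle-rich libraries, leaving out both of those oral replicates and the B cell covariate were chosen after seeing the data; the cause of each shift was not tested. The number of reads is unknown and low genes are measured coarsely.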
